A study of Mus musculus with 12 samples.

Results

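The Fc gamma receptor genes were measured by RNA-seq in dendritic cells (DCs) that had been grown from mouse bone marrow. The 6 genes were taken by symbol from the 55471 genes of the count table, and all 6 had enough counts to be tested among 18228 genes. They were the activating receptors *Fcgr1*, *Fcgr3* and *Fcgr4*, the inhibitory receptor *Fcgr2b*, the signalling chain *Fcer1g* and the neonatal receptor *Fcgrt*. C57BL/6 bone marrow was grown with GM-CSF, and in all 4 groups the cells carried a retroviral vector with a short hairpin RNA (shRNA) and a human CD8 reporter, on which they were sorted with magnetic beads. The control hairpin targeted firefly luciferase (shControl), and the other targeted *Ppargc1b* (sh*Ppargc1b*), which encodes the co-activator PGC-1β. Cells with either hairpin were then left unstimulated or given interferon-β (IFN-β) over 6 h, which made 4 groups of 3 libraries. The labels do not say which *Ppargc1b* hairpin was used, nor whether the 3 libraries of a group came from separate mice or cultures, so p-values measure the spread between these libraries, which may be technical.

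Fc gamma receptors bind the constant part of IgG, and on DCs and macrophages they take up immune complexes and set the threshold for activation. FcγRI, FcγRIII and FcγRIV, the products of *Fcgr1*, *Fcgr3* and *Fcgr4*, pair with the common γ chain encoded by *Fcer1g*, whose tyrosine-based activation motif (ITAM) recruits the kinase SYK. FcγRIIb, the product of *Fcgr2b*, carries its own inhibitory motif (ITIM) and recruits the phosphatase SHIP-1, and FcRn, the product of *Fcgrt*, works inside the cell with β2-microglobulin to save IgG from degradation.

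*Fcgr2b* (ENSMUSG00000026656, chr1:170958617-170976547, minus strand), *Fcgr4* (ENSMUSG00000059089, chr1:171018920-171029761, plus strand) and *Fcgr3* (ENSMUSG00000059498, chr1:171051174-171064935, minus strand) lie within 106 kb of each other in GENCODE M21 (GRCm38). *Fcer1g* (ENSMUSG00000058715, chr1:171229572-171234365, minus strand) is on the same chromosome. *Fcgr1* (ENSMUSG00000015947, chr3:96282909-96293969, minus strand) and *Fcgrt* (ENSMUSG00000003420, chr7:45092990-45103851, minus strand) are elsewhere. Over all 12 libraries *Fcgr2b* had 503973 counts, *Fcgr3* 411131, *Fcer1g* 363577, *Fcgr1* 122851, *Fcgr4* 20867 and *Fcgrt* 5839. Because receptor genes of a family can share sequence, each 100-base window of the annotated transcripts was searched in the transcripts of all other genes. No window of *Fcgr1*, *Fcgr4*, *Fcer1g* or *Fcgrt* was found elsewhere. Of 1733 windows of *Fcgr3*, 44 (2.54%) were also in *Fcgr2b*, with a longest identical run of 129 bases, so reads inside that run cannot be told apart between both genes. For *Fcgr2b*, 251 of 5843 windows (4.3%) were found elsewhere, these 44 among them. The exons of *Fcgr2b* shared 155 bases with an antisense gene, *Gm38204*, which had 366 counts in all.

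The promoters of the 4 receptor genes are shown because *Fcgr1* and *Fcgr4* rose most of the 6 genes with IFN-β, whereas *Fcgr3* and *Fcgr2b* fell in shControl cells. Sequences are from RefSeq (GRCm38.p6), run 5′ to 3′ on the strand of the gene and span 250 bases before to 50 bases after the start. Capitals mark matches, on either strand, to the core of the interferon-stimulated response element (ISRE; GAAA, any 2 bases, GAAA), the gamma-activated site (GAS; TTC, any 3 bases, GAA) and the core site of the myeloid factor PU.1 (GAGGAA).
*Fcgr1* promoter, chr3:96293920-96294219, minus strand: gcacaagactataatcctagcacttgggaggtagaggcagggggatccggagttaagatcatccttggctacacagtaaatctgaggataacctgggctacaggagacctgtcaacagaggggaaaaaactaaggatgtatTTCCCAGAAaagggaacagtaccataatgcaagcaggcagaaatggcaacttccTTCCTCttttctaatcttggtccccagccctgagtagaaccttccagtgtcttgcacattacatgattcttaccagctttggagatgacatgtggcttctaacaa
*Fcgr4* promoter, chr1:171018676-171018975, plus strand: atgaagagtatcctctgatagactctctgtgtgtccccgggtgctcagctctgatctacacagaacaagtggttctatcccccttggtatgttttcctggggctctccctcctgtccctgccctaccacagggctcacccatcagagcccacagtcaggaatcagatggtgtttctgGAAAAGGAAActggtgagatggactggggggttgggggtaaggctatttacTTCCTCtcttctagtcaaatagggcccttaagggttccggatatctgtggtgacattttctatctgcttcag
*Fcgr3* promoter, chr1:171059354-171059653, minus strand: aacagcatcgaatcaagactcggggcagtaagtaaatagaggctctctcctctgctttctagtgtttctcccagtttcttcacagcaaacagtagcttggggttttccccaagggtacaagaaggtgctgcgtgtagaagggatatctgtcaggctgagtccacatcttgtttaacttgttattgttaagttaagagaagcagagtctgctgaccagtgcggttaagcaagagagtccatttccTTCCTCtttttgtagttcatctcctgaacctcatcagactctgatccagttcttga
*Fcgr2b* promoter, chr1:170976022-170976321, minus strand: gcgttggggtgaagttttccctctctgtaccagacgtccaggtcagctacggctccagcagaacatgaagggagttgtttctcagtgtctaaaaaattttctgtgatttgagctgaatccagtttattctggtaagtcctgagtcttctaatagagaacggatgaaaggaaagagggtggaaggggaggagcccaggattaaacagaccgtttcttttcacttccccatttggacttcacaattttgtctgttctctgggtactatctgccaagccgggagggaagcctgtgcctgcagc

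The *Fcgr4* window held 1 ISRE core, starting 73 bases before the start, and 1 PU.1 core at 22 bases. The *Fcgr1* window held 1 GAS match at 109 bases and 1 PU.1 core at 55 bases before the start. The *Fcgr3* window held 1 PU.1 core at 6 bases before the start, and a second annotated start 9 bases away gave the same match. The windows of *Fcgr2b*, *Fcer1g* and *Fcgrt* held none of the 3 patterns. Of 32851 promoters of the same length in the table, 3.44% held the ISRE core, 8.3% the GAS and 28.3% the PU.1 core. No overlap between matches was found in these windows, and a match describes letters only.

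The libraries held 49.9 to 77.7 M counts, and replicates of a group correlated with a Pearson r of at least 0.991 (log2 CPM, across genes, which are not independent). *Ppargc1b* had 33.3 to 36.7 CPM in unstimulated shControl and 18.6 to 20.3 CPM in unstimulated sh*Ppargc1b* libraries (56.3% of control), and 23.6 to 31.4 and 15.5 to 20.9 CPM with IFN-β (67.2%). The DC markers *Itgax*, *Cd74* and *H2-Ab1* were high in every group (948 to 1154, 2086 to 2606 and 600 to 730 CPM as group means), as were the macrophage markers *Csf1r* (1177 to 1226 CPM) and *Lyz2* (5586 to 10350 CPM). CPM here is the read count scaled to a common library size, with TMM normalisation.

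To set the genes side by side, levels were divided by exon length (CPM per kb of merged exons). In unstimulated shControl cells the γ chain gene *Fcer1g* had the highest level of the 6, 504 ± 23.1 CPM per kb (SD, n = 3), followed by *Fcgr3* with 369 ± 8.81 and *Fcgr2b* with 147 ± 10.8. *Fcgr1* had 15.8 ± 1.95, *Fcgr4* had 6.60 ± 0.896 and *Fcgrt* had 5.92 ± 0.501 CPM per kb. The ranges of *Fcgr4* and *Fcgrt* overlapped and those of all other neighbours in this order did not. With IFN-β, *Fcer1g* had 698 ± 42.7, *Fcgr3* 315 ± 8.84, *Fcgr1* 135 ± 4.94, *Fcgr2b* 102 ± 5.24, *Fcgr4* 51.8 ± 4.79 and *Fcgrt* 4.36 ± 0.466 CPM per kb in shControl cells. On this scale *Fcgr1* was thus above *Fcgr2b*, without overlap, and *Fcgr4* was above *Fcgrt*. The place of *Fcgr2b* depends on which of its transcripts is counted, since its merged exons (5790 bases) include retained introns. With the length of each gene's longest protein-coding transcript *Fcgr2b* had 241 CPM per kb in unstimulated and 167 in IFN-β-treated shControl cells, above *Fcgr1*. With the length of transcript Fcgr2b-202 (1462 bases) it had 583 in unstimulated cells, above the 476 of *Fcgr3*. Changes of 1 gene between groups do not depend on length.

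**Figure D1:**
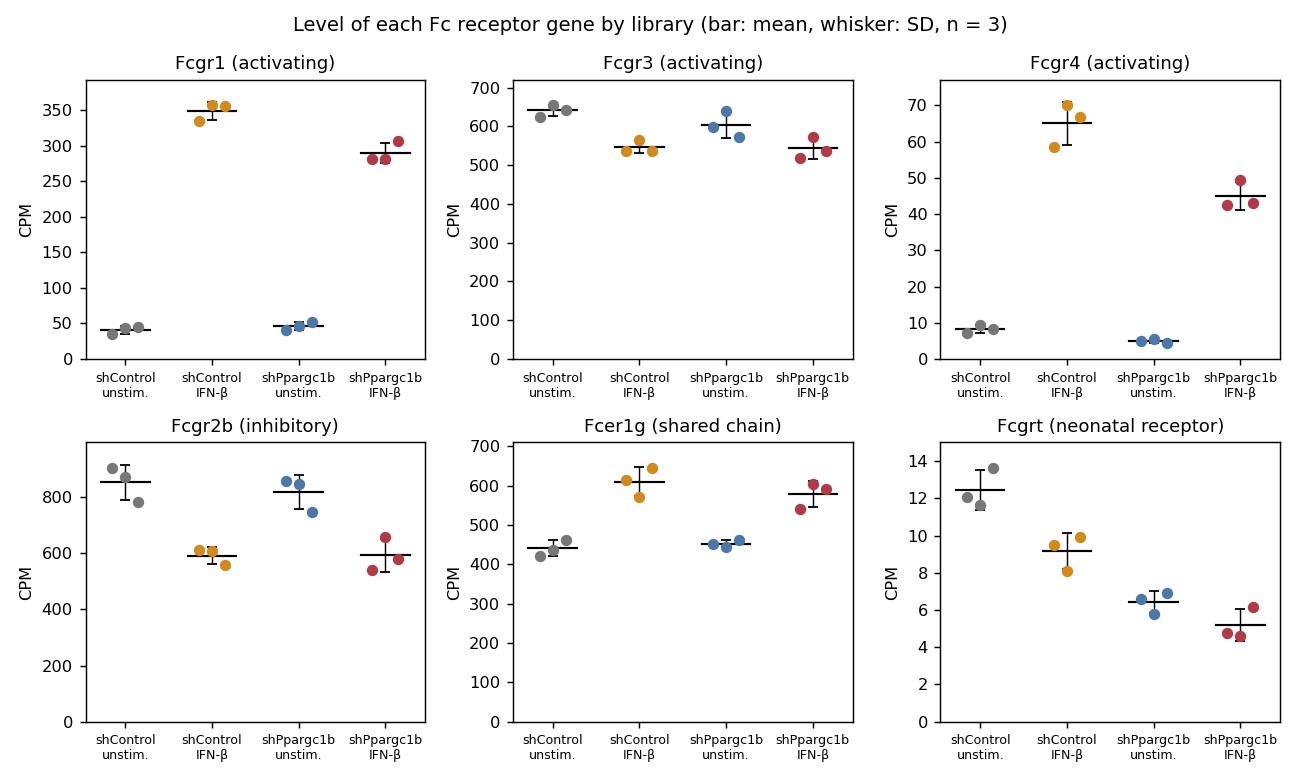
CPM (TMM-scaled, linear axis from 0) of the 6 genes in each of the 12 libraries; points are libraries, bars are means and whiskers are SDs of 3 libraries. *Fcgr1* and *Fcgr4* were high only in the IFN-β libraries, *Fcgr2b* and *Fcgr3* had lower means there, and *Fcgrt* fell from 12.4 to 6.43 CPM with the knockdown in unstimulated cells.

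The response to IFN-β was examined first in shControl cells. Each group enters an IFN-β comparison and a knockdown comparison, so the comparisons share libraries and their values are set side by side only. All 6 genes passed the threshold (edgeR quasi-likelihood test with Benjamini-Hochberg adjustment over all genes, adjusted p under 0.05), against 48.2% of all genes tested. *Fcgr1*, *Fcgr4* and *Fcer1g* rose, against 23.7% of all genes, and *Fcgr2b*, *Fcgr3* and *Fcgrt* fell, against 24.6%. With a background this high, the number of genes called says little, and the sizes are given for each gene.

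*Fcgr1*, which encodes the high-affinity receptor for monomeric IgG, had 35.1, 43.2 and 44.4 CPM in the unstimulated shControl libraries and 334, 357 and 356 CPM in the IFN-β-treated ones. Every treated library was far above every unstimulated one. This was an 8.53-fold rise (log2 fold change 3.09 ± 0.09 SE, adjusted p = 1.80e-13) and the 203rd highest of the 18228 genes. With the *Ppargc1b* hairpin *Fcgr1* went from 40.7, 46.1 and 52.2 CPM to 281, 282 and 306 CPM, a 6.24-fold rise (log2 fold change 2.64 ± 0.09, adjusted p = 1.26e-12). Again the groups were far apart.

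*Fcgr4*, which encodes an activating receptor for IgG2a and IgG2b, had 7.14, 9.39 and 8.35 CPM in unstimulated and 58.4, 70.1 and 66.7 CPM in treated shControl libraries. The log2 fold change was 2.97 ± 0.10 (adjusted p = 1.16e-12), a 7.84-fold rise that ranked 218th from the top. With the *Ppargc1b* hairpin *Fcgr4* went from 4.86, 5.40 and 4.43 CPM to 42.6, 49.4 and 43.0 CPM, a 9.20-fold rise (log2 fold change 3.20 ± 0.11, adjusted p = 1.00e-12) that ranked 142nd. From the lowest group to the highest, the 4 groups of *Fcgr4* were ordered with no overlap between neighbours. A small nuclear RNA gene, *Gm26110*, lies in an intron of *Fcgr4* on the same strand and had 155 counts in all. It rose by 2.14 in shControl cells (adjusted p = 0.000433), and reads of unspliced *Fcgr4* RNA were not separated from it.

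*Fcgr3*, which encodes the low-affinity activating receptor CD16, had 625, 655 and 644 CPM in unstimulated and 538, 564 and 537 CPM in treated shControl libraries. The groups did not overlap, and the log2 fold change was -0.23 ± 0.05 (adjusted p = 0.000923), to 85.2% of the unstimulated level. In sh*Ppargc1b* cells the levels were 599, 641 and 573 CPM without and 519, 574 and 538 CPM with IFN-β. These groups overlapped by less than 1 CPM, and the log2 fold change of -0.15 ± 0.05 passed the threshold (adjusted p = 0.0180). This call was lost without sh*Ppargc1b* unstimulated replicate 2 (adjusted p = 0.121), sh*Ppargc1b* IFN-β replicate 1 (0.0892) or replicate 3 (0.0601), and when only both groups were fitted (0.0526). The adjusted p ran from 8.28e-06 to 0.121 over the 18 alternatives.

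*Fcgr2b*, the inhibitory gene, had 904, 871 and 783 CPM in unstimulated and 611, 606 and 556 CPM in treated shControl libraries. The log2 fold change was -0.53 ± 0.07 (adjusted p = 2.19e-05), to 69.3% of the unstimulated level. In sh*Ppargc1b* cells it went from 857, 847 and 748 CPM to 541, 657 and 578 CPM (log2 fold change -0.47 ± 0.07, adjusted p = 9.97e-05). In both kinds of cell every treated library was below every unstimulated one.

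*Fcer1g*, the shared γ chain, rose from 422, 437 and 462 CPM to 613, 571 and 645 CPM in shControl cells (log2 fold change 0.47 ± 0.05, adjusted p = 2.20e-06). The same gene rose in sh*Ppargc1b* cells from 451, 443 and 461 CPM to 542, 605 and 590 CPM (0.36 ± 0.05, adjusted p = 5.01e-05). The rise was 1.38-fold and 1.28-fold, far smaller than that of the receptor genes *Fcgr1* and *Fcgr4*. Summed over the 3 activating receptors, the level per length went from 392 ± 11.4 to 501 ± 16.7 CPM per kb in shControl cells. The ratio of *Fcer1g* to that sum was 1.25 to 1.34 in unstimulated and 1.26 to 1.48 in treated shControl libraries, so the ranges overlapped. Among sh*Ppargc1b* libraries the ratio was 1.29 to 1.49 and 1.40 to 1.46.

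*Fcgrt*, the gene of FcRn, was low in all groups. It had 12.1, 11.6 and 13.6 CPM in unstimulated and 9.50, 8.07 and 9.95 CPM in treated shControl libraries (log2 fold change -0.44 ± 0.12, adjusted p = 0.00509). In sh*Ppargc1b* cells the levels were 6.58, 5.79 and 6.93 CPM without and 4.78, 4.61 and 6.16 CPM with IFN-β. The groups overlapped and the log2 fold change of -0.31 ± 0.12 missed the threshold (adjusted p = 0.0516, 95% interval -0.57 to -0.05). It passed in 7 of 18 alternatives, over which the adjusted p was 0.00255 to 0.198. Of the 6 genes, 5 were called in sh*Ppargc1b* cells against 42.6% of all genes. *Fcgr1*, *Fcgr4* and *Fcer1g* rose (21.4% of all genes did) and *Fcgr2b* and *Fcgr3* fell (21.2% of all genes did).

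**Figure D2:**
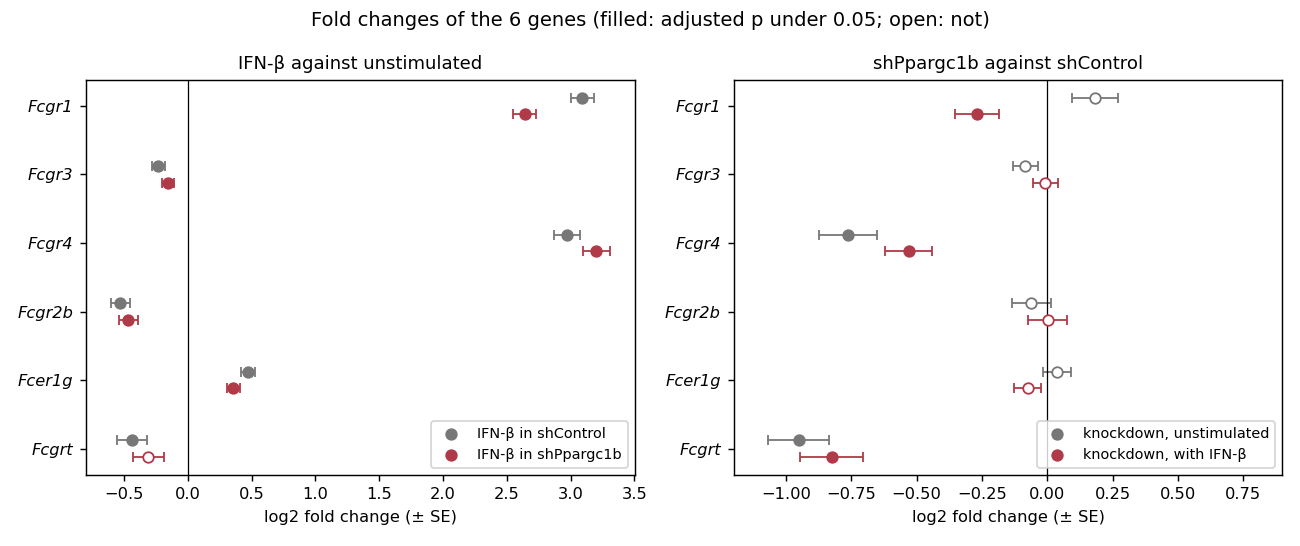
Log2 fold changes ± SE from edgeR for the 6 genes, with IFN-β against unstimulated on the left and sh*Ppargc1b* against shControl on the right; filled points passed an adjusted p of 0.05. The IFN-β effects range from -0.53 for *Fcgr2b* to 3.20 for *Fcgr4*, and the knockdown effects from -0.95 for *Fcgrt* to 0.18 for *Fcgr1*.

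The balance of activating to inhibitory genes was then measured within each library as the log2 ratio of counts to *Fcgr2b*, which depends on neither scaling nor length. Per 100 counts of *Fcgr2b*, unstimulated shControl libraries had 3.89 to 5.66 counts of *Fcgr1*, and IFN-β-treated ones had 54.7 to 63.9. For *Fcgr4* the numbers were 0.790 to 1.08 and 9.55 to 12, and for *Fcgr3* they were 69.1 to 82.2 and 88.0 to 96.6. In all 3 ratios the treated libraries were above the unstimulated ones, without overlap, and the same held in sh*Ppargc1b* cells. Averaged over both kinds of cell, IFN-β moved the ratio by 3.37 ± 0.13 (log2, SE) for *Fcgr1*, which is 10.4-fold, by 3.59 ± 0.09 for *Fcgr4*, which is 12-fold, and by 0.31 ± 0.05 for *Fcgr3*, which is 1.24-fold. The exact two-sided permutation p was 0.005 for each, the smallest that 400 assignments within the shRNA arms can give, and 0.0075 after adjustment over 6 tests. The rise for *Fcgr3* came with lower CPM of both genes.

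**Figure D3:**
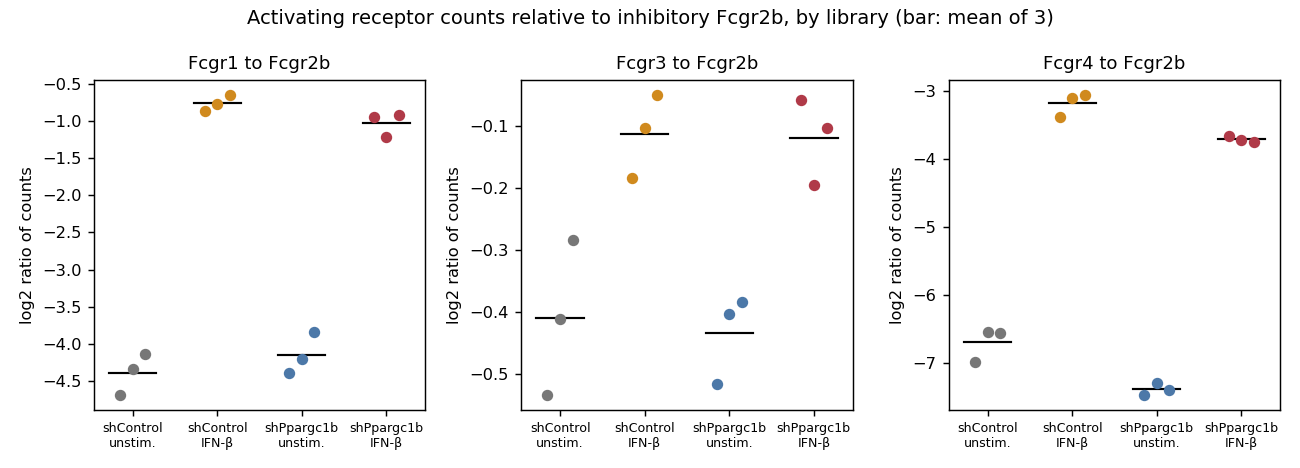
Log2 ratio of raw counts of each activating receptor gene to *Fcgr2b* in the 12 libraries; points are libraries, bars are means of 3, and each panel has its own axis range. In each panel all IFN-β libraries lie above all unstimulated libraries, and for *Fcgr4* the sh*Ppargc1b* libraries lie below shControl in both treatments.

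As a share of the summed level per length of the 4 receptor genes, *Fcgr3* went from 68.5 ± 1.38% in unstimulated to 52.2 ± 0.247% in IFN-β-treated shControl cells (SD, n = 3) and *Fcgr2b* from 27.3 ± 1.82% to 16.9 ± 0.880%. The share of *Fcgr1* went from 2.93 ± 0.359% to 22.3 ± 0.626% and that of *Fcgr4* from 1.22 ± 0.149% to 8.57 ± 0.614%. The sum itself went from 539 ± 11.5 to 603 ± 17.4 CPM per kb. In sh*Ppargc1b* cells the shares with IFN-β were 55.6 ± 0.434% for *Fcgr3*, 18.1 ± 0.902% for *Fcgr2b*, 19.9 ± 1.36% for *Fcgr1* and 6.36 ± 0.276% for *Fcgr4*. These shares use merged exon lengths, and a shorter length for *Fcgr2b* would raise its share in every group.

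**Figure D4:**
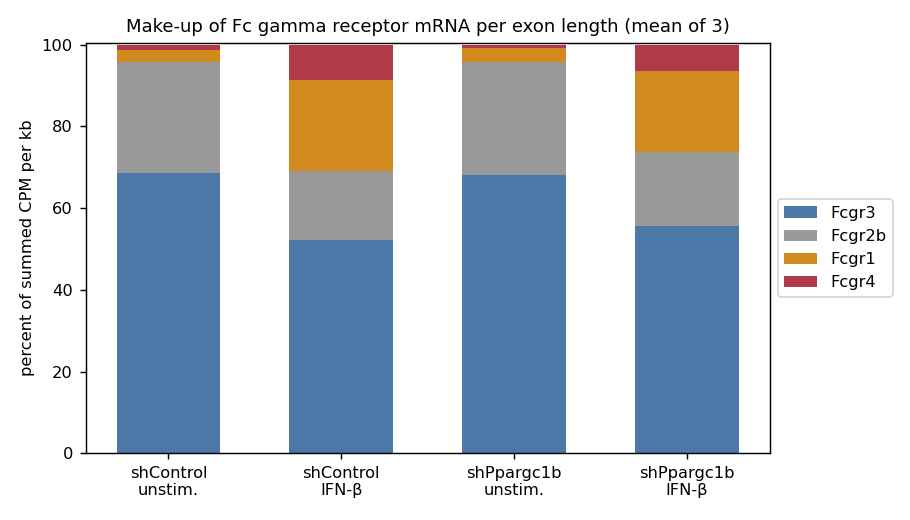
Share (percent) of each receptor gene in the summed CPM per kb of *Fcgr1*, *Fcgr2b*, *Fcgr3* and *Fcgr4*; stacked bars are means of 3 libraries per group. *Fcgr1* and *Fcgr4* together are the thin upper bands in unstimulated cells and widen with IFN-β, to 22.3% and 8.57% in shControl cells.

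To determine whether these genes differ when PGC-1β is knocked down, sh*Ppargc1b* was compared with shControl in each treatment. *Fcgr4* and *Fcgrt* fell in both, and the other 4 genes did not pass in unstimulated cells. In unstimulated cells 2 of 6 genes were called, both lower, against 23.6% of all genes called and 11.1% called lower. With IFN-β, *Fcgr4*, *Fcgrt* and *Fcgr1* fell, 3 of 6, against 24.2% of all genes called and 12.7% called lower. For the mean of both knockdown effects, *Fcgr4* and *Fcgrt* were called, against 35.1% of all genes called and 17.7% called lower.

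*Fcgrt* had the lowest log2 fold changes of the 6 genes. The unstimulated shControl libraries (11.6 to 13.6 CPM, 690 to 769 counts) and sh*Ppargc1b* libraries (5.79 to 6.93 CPM, 359 to 502 counts) did not overlap. The log2 fold change was -0.95 ± 0.12 (adjusted p = 2.50e-05) without IFN-β, which left 51.7% of control. With IFN-β it was -0.83 ± 0.12 (adjusted p = 0.000136), which left 56.4%, and *Fcgrt* ranked 297th and 438th from the bottom of the 18228 genes. Within the 3 runs of consecutive library codes, each with 1 library per group, the *Fcgrt* difference was -1.0 to -0.87 without and -0.99 to -0.69 with IFN-β. The RNA of all sorted cells of a sample was measured together, so fewer cells of a type that express the gene and less RNA per cell cannot be told apart.

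*Fcgr4* fell to 59.0% of control in unstimulated cells (log2 fold change -0.76 ± 0.11, adjusted p = 0.000119) and to 69.2% with IFN-β (-0.53 ± 0.09, adjusted p = 0.000489). The sh*Ppargc1b* libraries were below the shControl libraries without overlap in both treatments. Within the runs of library codes the difference was -0.91 to -0.55 and -0.63 to -0.45. Relative to *Fcgr2b*, the knockdown moved the *Fcgr4* count ratio by -0.61 ± 0.09 (log2), or 0.655-fold (exact two-sided permutation p = 0.005, adjusted p = 0.0075). The same test gave -0.01 ± 0.13 for *Fcgr1* (exact p = 0.925) and -0.02 ± 0.05 for *Fcgr3* (exact p = 0.790). For *Fcgr1* this is a mean of opposite differences, 0.24 in unstimulated cells, where the groups overlapped, and -0.27 with IFN-β, where they did not. For *Fcgr3* the differences were -0.02 and -0.0062, and the groups overlapped in both treatments.

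*Fcgr1* differed by 0.18 ± 0.09 in unstimulated cells (adjusted p = 0.157, 95% interval -0.0041 to 0.37) and fell with IFN-β to 83.0% of control (-0.27 ± 0.08, adjusted p = 0.0272), where the ranges of 281 to 306 and 334 to 357 CPM did not overlap. Within the runs of library codes the difference was 0.09 to 0.24 without and -0.34 to -0.22 with IFN-β. The call with IFN-β was lost without shControl IFN-β replicate 2 (adjusted p = 0.0623) or 3 (0.0685), or without sh*Ppargc1b* IFN-β replicate 1 (0.0681) or 2 (0.0552), and was 6.36e-06 to 0.0685 over all alternatives. In unstimulated cells *Fcgr1* passed with all genes of at least 1 count (0.00165), with a block for library codes (0.0219) and without sh*Ppargc1b* unstimulated replicate 1 (0.0344). It missed the threshold in the others of the 18 alternatives. Over all of them the difference was 0.084 to 0.27 and the adjusted p was up to 0.541.

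*Fcgr3*, *Fcgr2b* and *Fcer1g* did not pass in either treatment. The 95% intervals of the log2 fold change were -0.19 to 0.02 and -0.11 to 0.10 for *Fcgr3*, without and with IFN-β. For *Fcgr2b* they were -0.22 to 0.10 and -0.16 to 0.16, and for *Fcer1g* they were -0.08 to 0.15 and -0.19 to 0.04. A p that misses the threshold does not show that these genes were at the same level.

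Whether the knockdown changed the response to IFN-β was tested as the interaction. None of the 6 genes passed in the main edgeR fit, against 0.73% of all genes, and 1 had an unadjusted p under 0.05. This was *Fcgr1*, with an interaction of -0.45 ± 0.12 (unadjusted p = 0.00196, adjusted p = 0.111), a rise that was smaller in sh*Ppargc1b* cells. It was called in 3 of 17 alternatives, with all genes of at least 1 count (adjusted p = 1.05e-07), with the library code block (0.00523) and in DESeq2 (0.0133), and its adjusted p was up to 0.282 in the others. The interaction of *Fcgr4* was 0.23 ± 0.14 (adjusted p = 0.642), and those of the other 4 genes lay between -0.11 and 0.13.

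Markers of other cell types moved with the knockdown. The summed level of the 14 macrophage-like markers, of which 13 were tested, was 12800 to 13470 CPM in unstimulated shControl and 8348 to 8749 CPM in unstimulated sh*Ppargc1b* libraries, and 12380 to 13170 and 7974 to 8790 CPM with IFN-β. Most of that sum was *Lyz2*, which went from 10350 to 6001 CPM in unstimulated cells, whereas *Csf1r* was at 1226 and 1212 CPM and *Adgre1* at 153 and 162 CPM. In unstimulated cells 5 of the tested markers fell and 2 rose, with *Mrc1* (-1.51 ± 0.11, adjusted p = 1.99e-07) the lowest. Of all genes 11.1% fell and 12.4% rose in that comparison. The summed level of the 14 dendritic-like markers was 4902 to 5772 CPM in unstimulated shControl and 5649 to 6493 CPM in unstimulated sh*Ppargc1b* libraries, and 5146 to 6198 and 6101 to 6975 CPM with IFN-β. With the knockdown 6 of the 14 rose and 1 fell in unstimulated cells. With IFN-β 7 rose and 0 fell, against 11.5% and 12.7% of all genes. *Ccr7* rose most in unstimulated cells (1.32 ± 0.07, adjusted p = 1.18e-08). *Cd74*, *H2-Aa* and *H2-Ab1*, among the highest of the list, were not called in either treatment. The 8 eosinophil-like markers summed to 174 to 191 CPM in unstimulated shControl and 77.2 to 115 CPM in unstimulated sh*Ppargc1b* libraries, and 193 to 201 and 73.3 to 127 CPM with IFN-β. Most of that sum was *Ear2*, which went from 131 to 49.2 CPM in unstimulated and from 147 to 58.2 CPM in IFN-β-treated cells and was the 1 called marker of the 8 in each treatment. The 12 neutrophil-like markers summed to 52.7 to 107 and 101.4 to 173 CPM in unstimulated shControl and sh*Ppargc1b* libraries, and to 61.9 to 122 and 107 to 189 CPM with IFN-β. Sums were at most 19.2 CPM for mast cell or basophil-like markers (8 of 12 tested), 6.77 CPM for B cell-like (6 of 8) and 14.7 CPM for NK cell-like markers (2 of 8), and no marker of any list was at 0 in every library. The part of these shifts in the lower *Fcgr4* and *Fcgrt* levels was not tested.

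Genes listed for signalling downstream of the receptors were counted next. Medians over all genes were -0.03 and -0.02 for IFN-β in shControl and sh*Ppargc1b* cells. For the knockdown they were -0.0049 and -0.01 without and with IFN-β. Of all genes, 23.7% rose and 24.6% fell with IFN-β in shControl cells, and 21.4% and 21.2% in sh*Ppargc1b* cells. With the knockdown 12.4% rose and 11.1% fell in unstimulated cells, and 11.5% and 12.7% with IFN-β. The counts of every list below, and of the genes around the receptor cluster, stand beside these shares. Of 24 genes of proximal Fc receptor signalling, 11 rose and 7 fell with IFN-β in shControl cells (median log2 fold change 0.02), and 10 rose and 6 fell in sh*Ppargc1b* cells (0.06). Among the Src family kinase genes, *Fyn* rose by 0.65 ± 0.08 in shControl cells (adjusted p = 3.47e-06) and *Lyn* by 0.47 ± 0.04 in sh*Ppargc1b* cells (adjusted p = 3.26e-07). *Vav3*, a guanine nucleotide exchange factor, fell by 0.56 and 0.49 in shControl and sh*Ppargc1b* cells. *Card9*, an adaptor, fell by 0.51 and 0.35 (adjusted p = 4.06e-05 and 0.00154). With the knockdown 4 of the 24 genes rose and 9 fell in unstimulated cells (median -0.07), and 3 rose and 10 fell with IFN-β (-0.10). The genes of the PI3 kinase subunit p110δ, *Pik3cd* (-0.53 ± 0.06 and -0.34 ± 0.06), and of phospholipase Cγ2, *Plcg2* (-0.38 ± 0.06 and -0.32 ± 0.06), fell in both treatments.

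A list of 11 genes was drawn up for inhibitory signalling, and not all of them are known to act at FcγRIIb. Of these, 6 rose and 4 fell with IFN-β in shControl cells (median 0.14), and 5 rose and 2 fell in sh*Ppargc1b* cells (0.08). *Ptpn6*, the gene of the phosphatase SHP-1, rose by 0.82 ± 0.06 and 0.72 ± 0.06, and the ubiquitin ligase gene *Cblb* by 0.53 and 0.44. With the knockdown 1 rose and 3 fell in unstimulated cells (median -0.14), and 2 rose and 6 fell with IFN-β (-0.14). *Inpp5d*, the gene of SHIP-1, fell by 0.14 ± 0.04 with the knockdown in unstimulated cells (adjusted p = 0.0226). With IFN-β the knockdown difference of *Inpp5d* was -0.18 (adjusted p = 0.00502). Its response to IFN-β was -0.16 in shControl and -0.20 in sh*Ppargc1b* cells (adjusted p = 0.00362 and 0.000848). *Sh2d1b1*, which encodes the SH2 adaptor EAT-2, fell by 0.83 ± 0.07 and 0.58 ± 0.07. A part of EAT-2 in FcγRIIb signalling was not tested.

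Other receptors that bind immunoglobulin were mostly low, and 8 of 13 were tested. With IFN-β, *Trim21*, a cytosolic IgG receptor with ubiquitin ligase activity, rose by 2.60 ± 0.05 and 2.29 ± 0.05 in shControl and sh*Ppargc1b* cells (adjusted p = 3.61e-15 and 2.07e-14). *B2m*, the gene of β2-microglobulin, the partner of FcRn, rose by 0.59 ± 0.05 and 0.49 ± 0.05, while *Fcgrt* itself was at -0.44 and -0.31 (the latter not called). These were the only called genes of this list in those 2 comparisons (median 0.21 and -0.06 over the 8 tested). With the knockdown *Fcrlb*, an Fc receptor-like gene near *Fcgr2b*, rose by 0.57 ± 0.15 and 0.64 ± 0.15, and *B2m* rose by 0.27 ± 0.05 and 0.18 ± 0.05, which were the called rises (median 0.16 and -0.03), and *Trim21* fell by 0.33 ± 0.05 with IFN-β. *Fcer1a*, the α chain of the high-affinity IgE receptor, had at most 25 counts in any library.

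Of 21 tested genes of other ITAM adaptors and the receptors that pair with them, 9 rose and 3 fell with IFN-β in shControl cells (median 0.03), and 7 rose and 3 fell in sh*Ppargc1b* cells (0.01). *Gp6*, the collagen receptor gene of platelets that pairs with the γ chain, rose by 3.04 ± 0.19 and 2.25 ± 0.18 from a low level, and *Clec4e*, the gene of the γ chain-coupled lectin Mincle, rose by 1.63 ± 0.08 and 1.38 ± 0.08. With the knockdown 6 rose and 1 fell in unstimulated cells (median 0.135), against 12.4% and 11.1% of all genes. With IFN-β 6 rose and 2 fell (0.01), against 11.5% and 12.7% of all genes. *Clec5a*, a lectin gene, rose by 0.62 ± 0.08 and 0.46 ± 0.08, and *Pira2*, of the paired immunoglobulin-like receptors, fell by 0.54 ± 0.07 and 0.71 ± 0.07. Near-identical copies in the paired receptor and *Sirpb1* families can split reads, so single members of these families are uncertain.

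Of 18 other ITIM receptor genes, 9 rose and 7 fell with IFN-β in shControl cells (median 0.22), and 8 rose and 7 fell in sh*Ppargc1b* cells (0.15). *Milr1*, an inhibitory receptor first known from mast cells, rose by 1.44 ± 0.07 and 1.11 ± 0.07, and *Cd300lf* by 0.76 ± 0.04 and 0.82 ± 0.04, while *Clec4a2*, the gene of the lectin DCIR, fell by 0.60 ± 0.06 in sh*Ppargc1b* cells. With the knockdown 2 rose and 7 fell in unstimulated cells (median -0.02), and 1 rose and 7 fell with IFN-β (-0.11). *Clec12a* (-0.66 ± 0.08 and -0.76 ± 0.08), *Pirb* (-0.48 ± 0.05 and -0.47 ± 0.05) and *Lair1* (-0.42 ± 0.06 and -0.39 ± 0.06) fell in both treatments.

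Complement acts beside Fc receptors as an opsonin system. Of 11 tested complement genes and receptors, 5 rose and 2 fell with IFN-β in shControl cells (median 0.08), and 6 rose and 2 fell in sh*Ppargc1b* cells (0.13). *C3ar1*, the C3a receptor gene, rose by 0.99 ± 0.08 and 0.94 ± 0.08, and *C3* by 0.88 ± 0.06 and 0.63 ± 0.06, while *C5ar2*, a C5a receptor gene, fell by 1.29 ± 0.09 and 1.12 ± 0.09. With the knockdown 3 rose and 1 fell in unstimulated cells (median -0.02), and 2 rose and 3 fell with IFN-β (-0.07). *C3ar1* fell by 0.40 ± 0.08 and 0.44 ± 0.08, and *C5ar2* rose by 0.53 ± 0.09 and 0.70 ± 0.10.

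Of 18 transcription factor genes named for Fc receptor genes, 13 rose and 3 fell with IFN-β in shControl cells (median 0.46), and 11 rose and 2 fell in sh*Ppargc1b* cells (0.33). *Stat2* (2.66 ± 0.05 and 2.35 ± 0.05) and *Irf1* (2.32 ± 0.04 and 2.06 ± 0.04), which encode factors of the interferon response, were among those that rose. *Spi1*, the gene of PU.1, rose by 0.46 with the control hairpin (adjusted p = 1.22e-05) and by 0.44 with the other. With the knockdown 5 rose and 4 fell in unstimulated cells (median 0.02), and 2 rose and 5 fell with IFN-β (-0.08). *Irf4* (0.48 ± 0.06 and 0.66 ± 0.06) and *Irf8* (0.37 ± 0.06 and 0.53 ± 0.06), which encode factors of DC development, rose in both treatments, *Tfec* fell by 0.45 ± 0.06 and 0.38 ± 0.06, and *Irf1* fell by 0.34 ± 0.04 with IFN-β.

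Around the receptor cluster on chromosome 1, 38 other genes within 500 kb were tested. With IFN-β in shControl cells 9 rose and 9 fell (median -0.05), and in sh*Ppargc1b* cells 7 rose and 9 fell (-0.01). Of all genes 23.7% rose and 24.6% fell in shControl cells, and 21.4% and 21.2% in sh*Ppargc1b* cells. *Nectin4*, which encodes an adhesion molecule, and the neighbouring *F11r* rose by 2.24 and 1.06 in shControl cells, whereas *Fcgr3* and *Fcgr2b*, beside *Fcgr4*, fell. These neighbours were chosen after their values were seen. With the knockdown 2 rose and 5 fell in unstimulated cells (-0.07), and 2 rose and 7 fell with IFN-β (-0.09). Among those that fell in unstimulated cells was *Sdhc*, which encodes a subunit of complex II (-0.26, adjusted p = 0.000784). Of all genes 12.4% rose and 11.1% fell in unstimulated cells, and 11.5% and 12.7% with IFN-β.

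The genes whose log2 CPM followed each receptor gene most closely over the 12 libraries were found among 8768 genes with a mean log2 CPM of at least 3. For *Fcgr1* they were *Tpst1*, *Adar* and *Frmd4a* (Pearson r = 0.9995, 0.9992 and 0.9992), and for *Fcgr4* they were *Laptm4a*, *Oas1c* and *Gvin-ps7* (0.998, 0.996 and 0.996). For *Fcgr2b* they were *Fosl2*, *Zfp532* and *Hspa4l* (0.981, 0.980 and 0.978), and for *Fcgr3* they were *Lats2*, *Pigx* and *Mctp1* (0.965, 0.964 and 0.950). The 12 points share the split by treatment, which carries most of these values, and they are given as a description.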

How the data were processed

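Total RNA of 12 libraries was depleted of ribosomal RNA and sequenced as read pairs. The authors trimmed adapters (Trim Galore 0.6.0 in their processing notes), mapped reads to mm10 (GRCm38) with STAR and deposited raw counts per GENCODE M20 gene, with no normalization or pooling; the strand setting is not given in the sources used here. STAR's gene counting takes only uniquely mapped reads, so identical sequence is undercounted.

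The test followed the study's own choice, edgeR (here 4.0.16, run in R 4.3.3): filterByExpr (minimum count 10, minimum total 15; 18228 genes with 99.96% of the counts), TMM scaling, 1 mean per group over all 12 libraries, quasi-likelihood F-tests and Benjamini-Hochberg adjustment across the tested genes (threshold 0.05). Standard errors are the log2 fold change divided by the square root of F. The contrasts were the knockdown in each treatment, IFN-β in each kind of cell, the interaction and the mean knockdown effect. Count ratios to *Fcgr2b* were tested by exact permutation, two-sided, within strata. Within 1 stratum, 3 libraries against 3 allow no p below 0.1. The fits were tested on simulated counts for IFN-β in shControl cells. Of 99 genes changed by 1 (log2), 72.7% were called, and of 98 changed by 0.5, 55.1%. Of the unchanged genes, 3 were called. Changes of such sizes can thus be missed.

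The members and gene lists were chosen with earlier results of these data known. In each list, up to 4 called genes per contrast with the largest absolute log2 fold change and a mean log2 CPM of at least 1 could be named, and the text names some of them; members, *Ppargc1b*, markers, and for likeness the 3 closest genes were also named. Genes named outside this rule (*Spi1*, *Fcer1a*, overlapping genes and neighbours of the cluster) were chosen after their values were seen. Alternatives were other scalings (DESeq2 size factors, library totals), no filter beyond 1 count, DESeq2 1.42.0, only the groups compared, each library left out, and a block for runs of 4 consecutive library codes, each holding 1 library per group; the labels do not say what a run is. Exon lengths and positions are from GENCODE M21. Promoter and transcript sequences were used here, but protein sequences and a whole-genome sequence were not. Some genes of the lists are counted but not reported by name.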

Additional observations from a re-analysis of the deposited data

How the results depend on the processing

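With library totals as the scaling, the all-gene median log2 fold change became -0.27 and -0.22 for IFN-β in shControl and sh*Ppargc1b* cells. With TMM it was -0.03 and -0.02. The sizes of single genes moved as well. Over all alternatives the IFN-β log2 fold change in shControl cells was 0.23 to 0.54 for *Fcer1g* and -0.47 to -0.20 for *Fcgr3*. It was -0.77 to -0.47 for *Fcgr2b* and -0.68 to -0.33 for *Fcgrt*. Each of the 6 genes kept its direction with IFN-β, and *Fcgr4* and *Fcgrt* kept theirs with the knockdown in each treatment, in every alternative run, and the calls that changed are those of *Fcgr1* with the knockdown, of *Fcgr3* and *Fcgrt* with IFN-β in sh*Ppargc1b* cells, and of the *Fcgr1* interaction, given above. The number of the 6 genes called for the interaction was 0 in the main edgeR fit. It was 1 in edgeR with all genes of at least 1 count or with the library code block, and in DESeq2. Over all genes the interaction gave 133 calls, against 84 with library totals, 525 with all genes of at least 1 count, 425 with the library code block and 449 in DESeq2, and 36 (without shControl unstimulated replicate 3) to 271 (without sh*Ppargc1b* IFN-β replicate 2) with 1 library left out. The cause was not tested.

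Differences close to 0, none of them called, changed sign. With IFN-β, the knockdown difference of *Fcgr3* (-0.0072) became 0.015 with library totals, 0.0041 with all genes of at least 1 count and 0.013 with only the 2 groups compared, and that of *Fcgr2b* (0.0017) became -0.0033 with DESeq2 size factors and -0.0034 in DESeq2. With 1 library left out, these ranged from -0.059 to 0.014 for *Fcgr3* and from -0.091 to 0.050 for *Fcgr2b*. The unstimulated knockdown difference of *Fcgr2b* ranged from -0.12 to 0.0018. The mean knockdown effect ranged from -0.082 to 0.0097 for *Fcgr1*, -0.075 to 0.012 for *Fcgr2b* and -0.048 to 0.0092 for *Fcer1g*, and the interaction from -0.032 to 0.14 for *Fcgr2b* and -0.033 to 0.20 for *Fcgrt*. The knockdown effect on the count ratio to *Fcgr2b* ranged from -0.089 to 0.050 for *Fcgr1* and from -0.046 to 0.016 for *Fcgr3*, while the 4 called ratio effects stayed past the threshold in every alternative run, among them differences within runs of library codes (adjusted p = 0.0469). The levels per length with transcript lengths were computed after seeing the data. The labels give no replicate numbers by which libraries could be paired, and the runs of library codes, used as a block and for differences within runs, are no stated pairing.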
